A study of Mus musculus with 19 samples.

Results

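The genes described here are the cornification genes of the epidermal differentiation complex and their partners in mouse oral squamous cell carcinoma. They were taken by name: every gene row that maps to a protein-coding mouse symbol beginning with Sprr or Lce, together with Flg, Flg2, Hrnr, Rptn, Crnn, Ivl, Lor, Tchh, Sbsn, Krtdap, Cnfn, Tgm1 and Tgm3. This gave 49 genes of the 55487 in the table, and the rule uses names and not expression values, although it was written with earlier results of these data known. A minimum of 10 counts in 3 libraries was reached by 47 of the 49. The same 47 passed the filter on low counts that precedes the test, and Flg2 and Sprr4 did not. By family they are 14 Lce1 genes, 6 Lce3 genes, Lce6a, 11 Sprr2 genes, 4 genes of the Sprr1, Sprr3 and Sprr4 type, 6 genes whose proteins carry a fused S100 domain (Flg, Flg2, Hrnr, Rptn, Crnn and Tchh), the 2 scaffold genes Lor and Ivl, the 3 small secreted or envelope-associated products Krtdap, Sbsn and Cnfn, and the 2 transglutaminases Tgm1 and Tgm3.

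RNA was measured in 19 tumour libraries of C57BL/6J mice that were given 4NQO (4-nitroquinoline 1-oxide, a DNA-damaging carcinogen that produces oral squamous tumours) at 100 ug/ml in drinking water for 10 weeks, starting at 6 weeks of age, and plain water afterwards. The groups were vehicle (n = 4), regorafenib, an oral inhibitor of several kinases, at 5 mg/kg/day (n = 4), an antibody against PD1, the checkpoint receptor on T cells (n = 3), the combination of regorafenib and anti-PD1 (n = 5), and an agonist antibody to CD40, the co-stimulatory receptor on antigen-presenting cells (n = 3). All 5 groups carry the same 4NQO exposure, no tissue without 4NQO was analysed here, and the sources used here give neither the antibody doses nor the age at collection. The protocol text does not describe the anti-CD40 arm, which is known only from the sample labels. The labels number the samples without saying that each is a separate mouse. The p-values therefore reflect spread among samples that could be partly technical.

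When a squamous keratinocyte leaves the basal layer and flattens, it lays a cross-linked protein shell, the cornified envelope, beneath its membrane. Involucrin and loricrin serve as its scaffold and bulk protein, the small proline-rich (SPRR) and late cornified envelope (LCE) proteins are bridging substrates, the S100-fused proteins bundle keratin or load the envelope, and transglutaminases tie all of these together. Oral epithelium uses this programme unevenly: SPRR genes are known for induction by stress and injury in internal squamous epithelia, and the filiform papillae of the tongue surface are built from hard, heavily cornified cells.

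The promoter sequences of some of the genes that the results turn on are shown first. The letters TGANTCA were found in most Sprr2 promoters and in no Lce1 promoter, with the counts given below. Each line is the 200 bases upstream of the RefSeq start of the gene on GRCm38.p6, 5′ to 3′ on the gene's own strand. Capitals mark the letters TGANTCA, a pattern that includes the site of AP-1 factors such as Jun and Fos, and TATAAA, the TATA box. N stands for any base, so the pattern is wider than that site. The match in Sprr1b reads TGAATCA, and the other matches printed read TGAGTCA.
Sprr1a, chr3:92485882-92486081, minus strand: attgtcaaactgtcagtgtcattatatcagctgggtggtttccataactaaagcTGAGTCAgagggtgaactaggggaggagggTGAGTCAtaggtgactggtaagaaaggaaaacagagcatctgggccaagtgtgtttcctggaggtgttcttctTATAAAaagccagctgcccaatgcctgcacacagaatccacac
Sprr1b, chr3:92438780-92438979, minus strand: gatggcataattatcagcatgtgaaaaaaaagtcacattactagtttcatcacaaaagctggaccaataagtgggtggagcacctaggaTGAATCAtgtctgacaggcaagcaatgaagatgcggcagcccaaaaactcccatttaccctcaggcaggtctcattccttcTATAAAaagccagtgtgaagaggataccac
Sprr2d, chr3:92338940-92339139, plus strand: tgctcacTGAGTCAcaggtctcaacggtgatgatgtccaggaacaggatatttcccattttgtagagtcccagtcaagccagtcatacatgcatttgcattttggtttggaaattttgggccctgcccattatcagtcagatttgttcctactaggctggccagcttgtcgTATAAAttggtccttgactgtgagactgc
Sprr2i, chr3:92407791-92407990, plus strand: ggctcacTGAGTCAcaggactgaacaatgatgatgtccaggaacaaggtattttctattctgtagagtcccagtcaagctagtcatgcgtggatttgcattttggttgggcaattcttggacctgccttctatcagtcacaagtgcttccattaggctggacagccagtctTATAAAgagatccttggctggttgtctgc
Sprr2h, chr3:92385485-92385684, plus strand: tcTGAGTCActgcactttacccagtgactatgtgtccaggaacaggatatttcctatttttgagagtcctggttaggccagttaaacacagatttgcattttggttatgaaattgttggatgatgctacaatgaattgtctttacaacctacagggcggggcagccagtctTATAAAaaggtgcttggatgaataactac
Lce1d, chr3:92687211-92687410, minus strand: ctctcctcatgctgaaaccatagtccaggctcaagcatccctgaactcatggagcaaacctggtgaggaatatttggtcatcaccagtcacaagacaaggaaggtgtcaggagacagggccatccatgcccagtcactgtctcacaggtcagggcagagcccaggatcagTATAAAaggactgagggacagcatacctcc

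Promoters of 47 of the 49 genes were matched by symbol in RefSeq, in a window from 250 bases before to 50 after the start, and 8 short motifs were searched on both strands. The AP-1 letters TGANTCA were present in 17 of these 47 promoters, against 7.81% of the 32851 promoters searched. They stood in 7 of the 10 matched Sprr2 promoters, and in none of the 13 Lce1 or 6 Lce3 promoters. In each of those 7 a match began between -198 and -193. Genes of a family are related copies, so the motif counts are not counts of independent promoters. In the 3 printed Sprr2 promoters the copy begins at -193, -193 and -198, and the TATA box begins at -29 in each. Sprr1a carries AP-1 letters at -146 and -116, Sprr1b at -111, and Sprr3 and Sprr4 had none. Outside the Sprr genes they were found in Crnn, Flg, Flg2, Rptn, Ivl, Lor, Krtdap and Sbsn. TATAAA was found in 22 of the 47 against 13.6% of all promoters. It stood in 7 of the 10 Sprr2 promoters and in 2 of the 13 Lce1 promoters, Lce1m and the printed Lce1d. The other 6 motifs were the KLF letters CACCC in 26 (57.5% of all promoters), NRF2 letters TGACNNNGC in 8 (12.4%), STAT letters TTCNNNGAA in 4 (8.3%), an NF-kappa-B motif in 4 (20.7%), the interferon response element in 1, Tgm1 (3.44%), and the ETS letters CCGGAA in 0 (14.9%). NRF2 and AP-1 letters can overlap by their shared TGA, and a match is only a description of the letters in this window.

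Of the 49 genes, 44 lie within 1.369 Mb of chromosome 3 on GRCm38, between positions 92080271 (Lor) and 93449077 (Tchh). Tgm3 is on chromosome 2, Krtdap, Sbsn and Cnfn are on chromosome 7, and Tgm1 is on chromosome 14. Within the complex, the Sprr genes occupy the stretch between Lor and Ivl, the Lce1 and Lce3 genes follow Ivl, and the S100-fused genes close the row. Near-identical copies limit what single gene counts mean here, because how shared reads were counted is not stated for these data. Of the 50-base stretches in the exons of Sprr2a1, 96.3% also occur in another gene, and the same holds for 96.5% in Sprr2a2 and 61.1% in Sprr2a3, whereas Sprr2h, Sprr2k, Sprr1a, Sprr1b and Sprr3 share none. The gene models of Sprr2a1 and Sprr2a2 also overlap on the genome. Among the Lce3 genes the share ran from 12.1% in Lce3b to 49.3% in Lce3d.

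**Figure D1:**
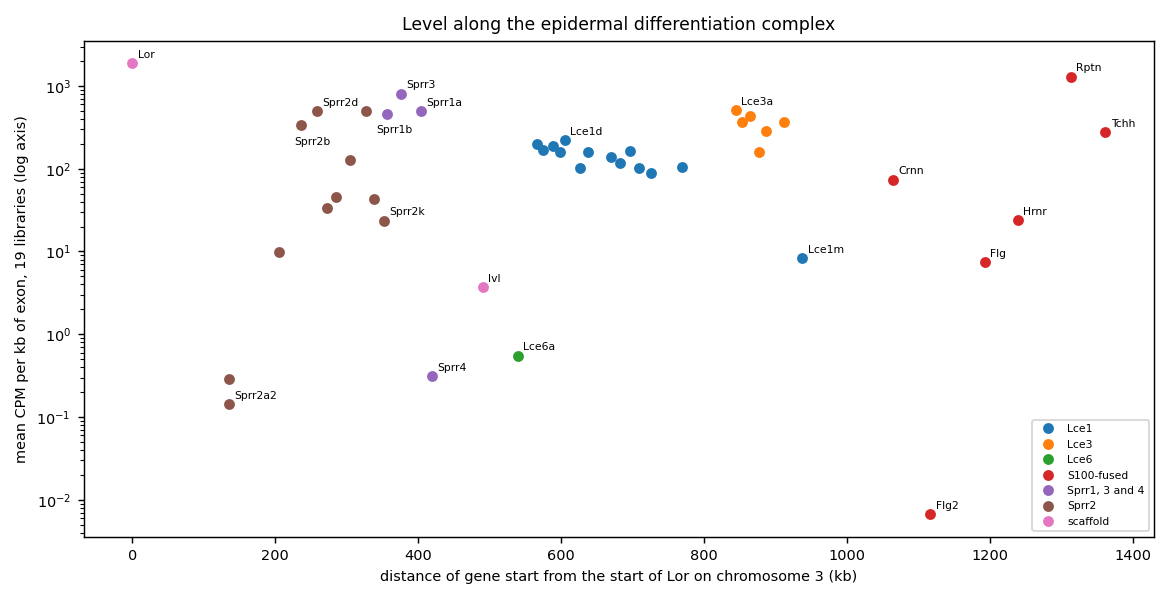
Mean level of each chromosome 3 gene (points, coloured by family; scaffold means Lor and Ivl), in CPM per kb of exon over the 19 libraries on a log axis, against the distance of its gene start from that of Lor in kb. Lor and Rptn near the ends of the row are the highest, most Lce1 genes sit within a narrow band, and Sprr2 genes spread from 0.142 (Sprr2a2) to 499 (Sprr2d).

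Levels were set between genes as CPM (counts scaled to a common library size with TMM, edgeR's trimmed-mean scaling) per kb of exon, averaged over the 19 libraries. Krtdap, a small secreted product of differentiating keratinocytes, was highest at 2171 CPM per kb, followed by the bulk envelope protein loricrin (Lor) at 1882 and repetin (Rptn), an S100-fused protein of tongue papillae and other cornifying sites, at 1291. Cornifelin (Cnfn) stood at 897, the transglutaminase Tgm3 at 867 and Sprr3, the SPRR gene of internal squamous epithelia, at 802. The Lce3 genes ran from 158 (Lce3d) to 510.4 (Lce3a), above every Lce1 gene except that Lce3d lay below 6 of them, and the Lce1 genes ran from 8.3 (Lce1m) to 221 (Lce1d). Filaggrin (Flg), the matrix protein of skin, reached 7.43 CPM per kb and involucrin (Ivl) 3.72, both far below the scaffold partner Lor. The shared stretches given above are those found in another gene. Repeats within a gene were not measured, and how reads from them were counted is not stated. Lce6a, Sprr4, Sprr2a1, Sprr2a2 and Flg2 were each below 1 CPM per kb. Together the 49 genes took 1.769% to 2.72% of the counts of a library.

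The depth of the 19 libraries ran from 16776177 to 24969492 counts, and 16909 genes passed the filter. Squamous epithelium was present in every library: basal keratinocyte markers (Krt5, Krt14 and 8 others) summed to 5958 to 11440 CPM, and suprabasal oral keratins such as Krt4 and Krt13 to 50730 to 70770 CPM. Normal oral epithelium makes these keratins too, so they do not check the carcinoma label. Other tissue was present to differing degrees: 19 skeletal muscle genes summed to 29990 to 62620 CPM, and salivary gland genes to 40.2 to 36270 CPM. The groups differed in these markers. Stomach gland markers scored (mean log2 CPM of 11 genes) 0.55 to 3.06 in the 4 regorafenib libraries and -2.95 to -0.22 in the other 15, while their summed CPM overlapped, at 109 to 572 CPM with regorafenib, up to 288 CPM in vehicle and up to 1088 CPM with anti-PD1. Their muscle markers summed to 29990 to 38360 CPM against 45420 to 52850 CPM in vehicle, without overlap, and their basal keratinocyte markers to 8273 to 11440 CPM against 5958 to 7653 CPM, also without overlap. The suprabasal oral keratins (66680 to 68680 against 58350 to 62880 CPM), the leukocyte list (703 to 1331 against 21.1 to 648 CPM) and the erythrocyte list (113 to 222 against 82 to 104 CPM) were likewise higher with regorafenib without overlap. With regorafenib most of the leukocyte sum was S100a8 (678.5 to 1302 against 3.113 to 626.5 CPM), which stressed keratinocytes also make. The pan-leukocyte gene Ptprc overlapped between these groups, at 9.689 to 13.23 against 6.173 to 11.29 CPM. The part of these markers in the results that follow was not tested. Fits with a tissue score are named below, but they cannot fully separate tissue from treatment, because the scores differed with treatment. The mean muscle score was 9.549 in vehicle and 9.177 with regorafenib, and the mean basal keratinocyte score 8.405 and 8.751. The stomach gland score was not used as a covariate. In bulk tissue, fewer cells of a type and less RNA per cell cannot be told apart.

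Vehicle 4, anti-CD40 2 and combination 2 stood apart in the genes described here and are named wherever a result rests on them. Vehicle 4 and anti-CD40 2 were at the bottom for the Sprr2 genes: vehicle 4 was among the 2 lowest of 19 libraries for 11 of the 11 Sprr2 genes and anti-CD40 2 for 10. Combination 2 was the lowest library for 14 of 14 Lce1 genes and for 19 of the 47 tested genes, and the highest for 7 Sprr2 genes. These libraries were singled out after their values were seen.

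**Figure D2:**
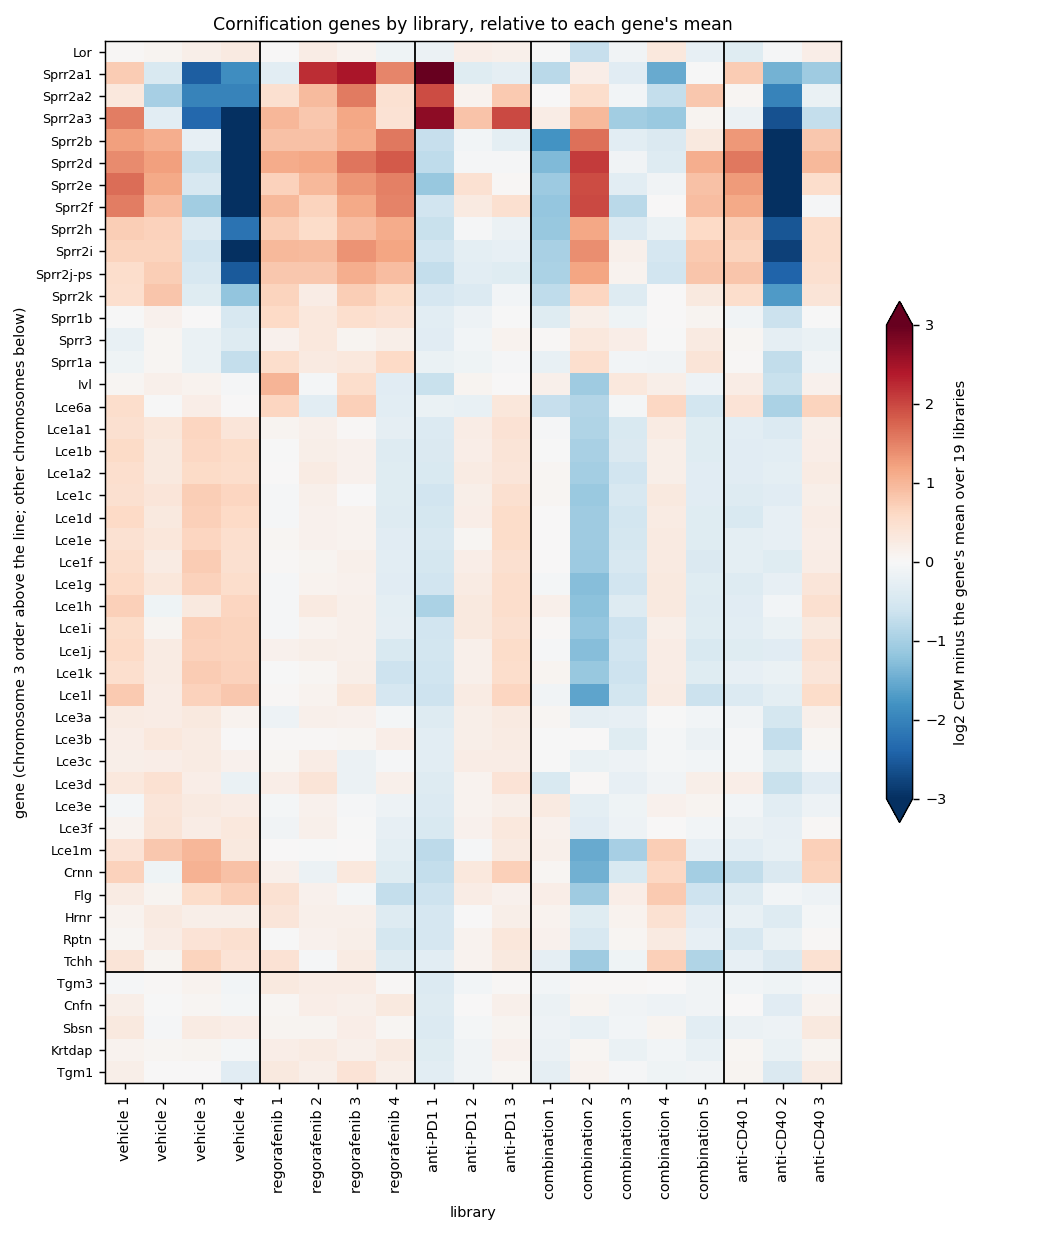
Log2 CPM of each of the 47 tested genes (rows, in chromosome 3 order above the line, other chromosomes below it) in each library (columns, grouped by treatment), minus the gene's mean over the 19 libraries; red is above and blue below that mean, and the colour scale ends at 3 in either direction. The Sprr2 block is blue in vehicle 4 and anti-CD40 2, and the Lce1 block is bluest in combination 2.

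Sprr1a and Sprr1b, the SPRR genes most associated with stressed and regenerating squamous epithelium, rose with regorafenib, and they were the only members past the threshold against vehicle in any treatment in this fit. Sprr1a (chromosome 3, 92483952 to 92485895) measured 357, 403, 339 and 236 CPM in the vehicle libraries and 562, 472, 483 and 589 CPM with regorafenib. The groups did not overlap, and vehicle 4 was the lowest of all 8. The log2 change was 0.66 ± 0.19 (SE), or 1.58-fold, and edgeR's quasi-likelihood test gave an adjusted p of 0.0477. Sprr1b (chromosome 3, 92436809 to 92438789) measured 370.2, 413, 379 and 269 CPM in vehicle and 565, 468, 529 and 505 CPM with regorafenib. These groups also did not overlap, with a log2 change of 0.53 ± 0.15 (1.44-fold) and an adjusted p of 0.0432 by edgeR. These 2 are 2 of 47 tested members, against a background of 6.13% of all 16909 genes called in this comparison and 3.29% called higher, which is close to the members' share, and the number of all genes called fell from 1037 to 235 without vehicle 4 and to 239 without regorafenib 4. At an unadjusted p under 0.05, 15 members stood against 24.7% of all genes. Both calls rest on few libraries: each was kept in 1 of the 8 fits that left out a vehicle or regorafenib library, with adjusted p up to 0.152 for Sprr1a and 0.14 for Sprr1b, both without vehicle 4. Without vehicle 4 and anti-CD40 2 together the log2 changes were 0.52 and 0.41, with adjusted p of 0.0921 and 0.0704. With the skeletal muscle score as a covariate they were 0.51 and 0.37 (adjusted p = 0.197 and 0.192), and with the basal keratinocyte score 0.42 and 0.33 (adjusted p = 0.453 and 0.446), all by edgeR.

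With either antibody alone the Sprr1 genes overlapped the vehicle values. Anti-PD1 libraries gave 337, 358 and 381 CPM of Sprr1a and 302, 337 and 375 CPM of Sprr1b. Anti-CD40 libraries gave 398, 232 and 359 CPM of Sprr1a and 349, 239 and 375 CPM of Sprr1b, with anti-CD40 2 the lowest library of all 19 for both. In the combination Sprr1a split into 331, 365 and 360.2 CPM in libraries 1, 3 and 4 and 549.6 and 508 CPM in libraries 2 and 5. Sprr1b in the combination measured 293, 424, 342, 380.1 and 397 CPM, all below the lowest regorafenib library. Against regorafenib alone Sprr1b fell by 0.49 ± 0.14 on the log2 scale (edgeR, adjusted p = 0.0341), whereas for Sprr1a the difference was -0.32 ± 0.18 (adjusted p = 0.25). Sprr1b was also the only member called in the test for any difference among the 5 groups (edgeR, adjusted p = 0.0494), where 3.94% of all genes were called. That call was lost with RLE scaling and with the muscle or the basal keratinocyte score as a covariate. The call against regorafenib was kept in 4 of 9 fits that left out 1 library.

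Sprr3, the most abundant SPRR gene per kb, did not pass the threshold in the 8 tests by edgeR fitted to all libraries, whereas DESeq2 and limma called it higher with regorafenib. It measured 825, 1007, 851 and 737 CPM in vehicle, 1054, 1199.5, 1022 and 1092 CPM with regorafenib, and 997, 1208, 1109, 958 and 1177 CPM in the combination. The regorafenib libraries all lay above the vehicle libraries, while the combination overlapped vehicle at 958 and 997 CPM. The log2 changes were 0.35 ± 0.11 in both, with adjusted p of 0.0714 for regorafenib and 0.252 for the combination by edgeR. Anti-PD1 (769 to 1046 CPM) and anti-CD40 (809 to 1004 CPM) overlapped vehicle.

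**Figure D3:**
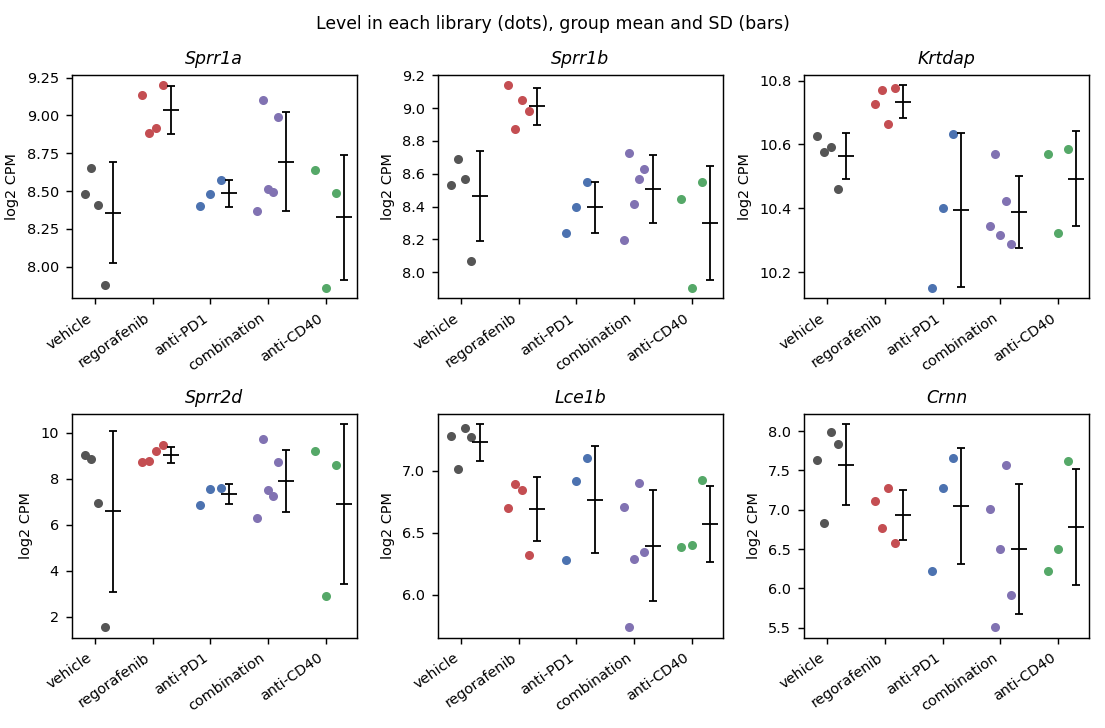
Level in log2 CPM (y axis; each panel has its own scale) of 6 genes in each library (points) by treatment group (x axis), with the group mean and SD beside the points. Regorafenib libraries sit above vehicle for Sprr1a, Sprr1b and Krtdap, the Sprr2d points of vehicle and anti-CD40 span more than 6 log2 units, and vehicle is highest on average for Lce1b and Crnn.

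The Sprr2 genes encode the largest SPRR subfamily, known for induction in inflamed and wounded epithelium. Their levels varied between libraries of the same group more than almost any other genes measured. The SD of log2 CPM within groups was 0.71 to 2.22 over the 11 genes, which lies between the 96.43rd and 99.68th percentile of all tested genes, where the median SD was 0.18. Sprr2d (chromosome 3, 92339140 to 92340873) measured 524, 462, 124 and 2.8 CPM in vehicle, 424, 441, 603 and 704 CPM with regorafenib, and 116, 191 and 193 CPM with anti-PD1. It measured 79.3, 849, 183, 152 and 421 CPM in the combination and 593, 7.37 and 390.3 CPM with anti-CD40. The extremes, vehicle 4 and combination 2, differed 303-fold, and the vehicle range alone covered the whole of the regorafenib range except the 2 highest libraries.

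Sprr2i and Sprr2h, which share their upstream motif arrangement with Sprr2d in the sequences shown above, were likewise lowest in vehicle 4 or anti-CD40 2 and highest in combination 2. Sprr2i measured 368, 372, 156 and 23.2 CPM in vehicle, 453, 450.5, 589.9 and 524 CPM with regorafenib, and 369, 33.1 and 337 CPM with anti-CD40. All 4 regorafenib libraries lay above vehicle, but the log2 change of 1.13 ± 0.69 had a wide error (edgeR, adjusted p = 0.321). Sprr2h, whose exons share no 50-base stretch with another gene, ran from 13.2 CPM in anti-CD40 2 to 174 CPM in combination 2. Summed over the 11 genes, Sprr2 stood at 1662, 1493, 543 and 74.7 CPM in vehicle, 1504, 1495, 1934 and 2129 CPM with regorafenib, and 598, 734 and 750.1 CPM with anti-PD1. The sums were 342, 2455, 714, 589 and 1310 CPM in the combination and 1703, 80.8 and 1263 CPM with anti-CD40. Anti-PD1 was the most uniform group and regorafenib next, while vehicle, combination and anti-CD40 each held libraries far apart.

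No Sprr2 gene was called in any of the 8 tests by edgeR fitted to all groups and libraries. With regorafenib all 11 were higher than vehicle, with a median log2 change of 0.85 and adjusted p from 0.0944 to 0.734. That median was 0.48 without vehicle 4 and anti-CD40 2, and all 11 stayed higher. Against vehicle the median was -0.36 for anti-PD1, 0.13 for the combination and 0.09 for anti-CD40. Without those 2 libraries it was -0.73 for anti-PD1, -0.21 for the combination and 0.25 for anti-CD40, so the sign of the combination's median changed. Without combination 2 that median was -0.30. The combination was lower than regorafenib alone for all 11, with a median of -0.69, or -1.13 without combination 2.

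The 3 genes Sprr2a1, Sprr2a2 and Sprr2a3 did not follow the rest of the subfamily in the anti-PD1 group. Sprr2a3, which had most of their counts, measured 52.1, 14.2, 3.41 and 1.56 CPM in vehicle, 35.7, 31.3, 39.9 and 24.1 CPM with regorafenib, 114, 32.3 and 70.2 CPM with anti-PD1, 20.9, 35, 8.63, 8.18 and 19 CPM in the combination and 15.6, 2.84 and 10.8 CPM with anti-CD40. Anti-PD1 1 was the highest of all libraries for this gene but among the lower ones for Sprr2d. The anti-PD1 log2 changes against vehicle were 2.00 ± 0.78 for Sprr2a3, 2.4 ± 0.97 for Sprr2a1 and 2.46 ± 0.79 for Sprr2a2 (edgeR, adjusted p = 0.424, 0.437 and 0.296). Sprr2a2 had the smallest p of the members in that comparison, and Sprr2a3 had it in the combination against anti-PD1 (edgeR, log2 change -1.98 ± 0.73, adjusted p = 0.336). Sprr2a1 had the smallest p in the interaction of regorafenib and anti-PD1, with a log2 value of -4.88 ± 1.30 and an adjusted p of 0.0831, on 0 to 92 counts per library. Without anti-PD1 1 this value was -2.58, and the anti-PD1 change of Sprr2a2 ran from 1.69 without anti-PD1 1 to 4.30 without vehicle 1. Since most of their exon sequence is shared, how the reads of these 3 were divided is uncertain.

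The low Sprr2 libraries were also low in S100a8 and S100a9, which lie on the same chromosome and encode calprotectin, a protein of neutrophils and of stressed keratinocytes. S100a8 was at 3.11 CPM in vehicle 4 and 7.59 CPM in anti-CD40 2, against 109 to 1302 CPM in the other 17. S100a9 was at 1.97 and 7.54 CPM against 120 to 1766 CPM. The leukocyte marker list, 5 tested genes that include S100a8, scored lowest in the same libraries, at 1.36 and 2.08 against 2.96 to 3.90 elsewhere. S100a8 is part of that mean, so the score partly restates the S100a8 values and is no separate evidence. The pan-leukocyte gene Ptprc was at 6.17 CPM in vehicle 4 and 7.37 CPM in anti-CD40 2, and ran to 15.9 CPM in combination 4. In combination 1 Ptprc was at 14.9 CPM, where the Sprr2 sum was 342 CPM. In regorafenib 1 Ptprc was at 9.69 CPM, where that sum was 1504 CPM. These libraries were picked after their values were seen, and Ptprc and Sprr2 were not compared over all libraries. The highest S100a9 values were those of regorafenib 3 (1766 CPM) and combination 2 (1441 CPM), both among the libraries with most Sprr2. The part of leukocyte content in the Sprr2 levels was not tested.

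**Figure D4:**
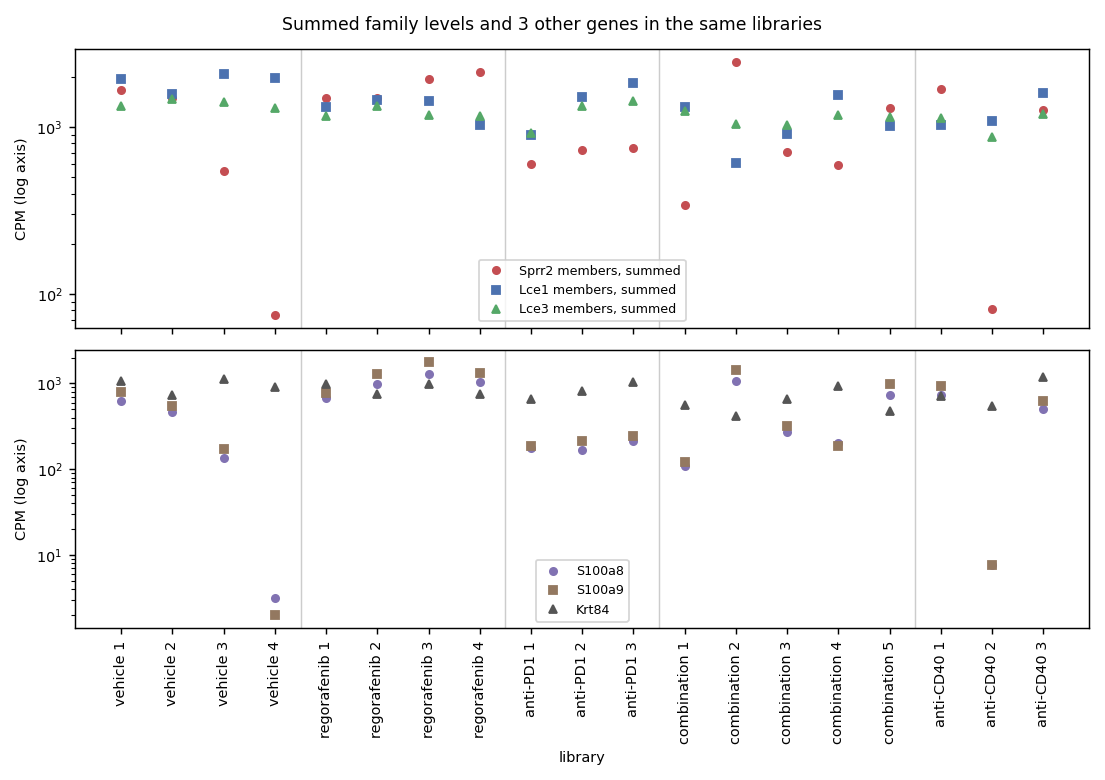
Summed CPM of the Sprr2, Lce1 and Lce3 members (upper panel) and CPM of S100a8, S100a9 and Krt84 (lower panel) in each of the 19 libraries, on log axes, with grey lines between groups. In vehicle 4 and anti-CD40 2 the Sprr2 sum and the S100 genes are low together, while the Lce1 sum and Krt84 stay within the range of the other libraries; the Lce3 sum is lowest in anti-CD40 2 (878 CPM).

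Lce1 genes, envelope substrates of the uppermost layers, had a lower estimate than vehicle in every treatment, and none passed the threshold in the 8 tests by edgeR fitted to all groups. Fitted to the vehicle and regorafenib libraries alone, edgeR called 8 of them lower with regorafenib (Lce1a1, Lce1b to Lce1g and Lce1m). Over all genes that fit called 991, in either direction. Lce1d (chromosome 3, 92685499 to 92687210), the highest of them per kb, measured 216, 174, 234 and 217 CPM in vehicle, 139, 155, 153 and 109 CPM with regorafenib, and 98.6, 165 and 209 CPM with anti-PD1. It measured 143, 67.6, 97.6, 168 and 111 CPM in the combination and 104, 119.7 and 166 CPM with anti-CD40. Vehicle did not overlap regorafenib, the combination or anti-CD40, and it overlapped anti-PD1 through anti-PD1 3. Lce1b (chromosome 3, 92655650 to 92656926) had the smallest p of the members in the combination against vehicle. It measured 156, 129, 163 and 155 CPM in vehicle and 104, 53.3, 78.4, 119.5 and 81.3 CPM in the combination, a log2 change of -0.79 ± 0.20 (edgeR, adjusted p = 0.17, n = 4 and 5 in a fit across all genes). Lce1a1 had the smallest p with anti-CD40, at a log2 change of -0.63 ± 0.23 (edgeR, adjusted p = 0.781).

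All 14 Lce1 estimates were below 0 in each of the 4 treatments, but these comparisons share the same 4 vehicle libraries, and vehicle 3 was the highest of all 19 libraries for 12 of the 14. The median log2 change of the 14 was -0.54 with regorafenib, -0.41 for anti-PD1, -0.81 for combination and -0.60 for anti-CD40, against 0.00, -0.0007, 0.01 and 0.01 over all tested genes. The Lce1 genes are related copies that share up to 27.1% of their 50-base exon stretches (Lce1i) and move together across libraries, so 14 estimates are not 14 independent results. In the combination against vehicle all 14 had an unadjusted p under 0.05, with adjusted p from 0.17 to 0.436. DESeq2 called 7 of them there (Lce1a1, Lce1a2 and Lce1b to Lce1f), while edgeR and limma called 0. Of all 16909 genes, DESeq2 called 122 in this comparison, edgeR 4 and limma 5. Without combination 2 the median was -0.65, and without vehicle 4 and anti-CD40 2 it was -0.79.

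Counting members whose groups did not overlap, 11 Lce1 genes had every regorafenib library below every vehicle library, against 7.88% of all genes. In the combination 9 Lce1 genes with Lce3a and Lce3c did so, against a background of 1.91%, and no member was wholly above vehicle (1.73% of all genes). With anti-CD40 13 members did so against 2.57% of all genes: 7 Lce1 genes, Lce3c, Lce3e, Lce3f, Flg, Hrnr and Rptn. No member had every anti-CD40 library above vehicle (3.29% of all genes). With anti-PD1 it was Lce1m alone, against 4.64%, with 0 wholly higher against 4.6%. In the other direction, 7 members had every regorafenib library above every vehicle library, namely Sprr1a, Sprr1b, Sprr3, Sprr2a2, Sprr2i, Sprr2j-ps and Krtdap, where the background was 8.63%.

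The hard keratins of tongue papillae and hair were low in the library lowest in Lce1. Their score, over 5 tested genes including Krt84 and Krt36, was lowest in combination 2 at 5.92, the library lowest for every Lce1 gene, and ran to 8.27 in vehicle 1. By group the summed papilla keratins were 1925 to 3010 CPM in vehicle, 1899 to 2629 CPM with regorafenib, 1710 to 2867 CPM with anti-PD1, 935 to 2264 CPM in the combination and 1277 to 3060 CPM with anti-CD40. Krtap5-1 was at 0 in all of them. The papilla keratin sums overlapped between vehicle and regorafenib. After combination 2 the next lowest score was that of anti-CD40 2 (6.58), whose median rank over the Lce1 genes was 7 from the lowest. The highest scores, in vehicle 1, anti-CD40 3 and anti-PD1 3 (8.27, 8.21 and 8.12), went with median Lce1 ranks of 17, 14.5 and 16. These libraries were picked after their values were seen, and the score and Lce1 were not compared over all libraries. The part of papilla content in the Lce1 levels was not tested.

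The Lce3 genes, known for induction at sites of barrier injury, were steadier. Their SD within groups was 0.16 to 0.31 on the log2 scale, against 0.33 to 0.59 for Lce1. Lce3a measured 331, 325, 342 and 295 CPM in vehicle, 249, 306, 305 and 267 CPM with regorafenib, 211, 313 and 332 CPM with anti-PD1, 289, 231, 234, 276 and 261 CPM in the combination and 257, 191 and 309 CPM with anti-CD40. The combination lay wholly below vehicle, and the other groups overlapped it. All 6 were below vehicle in each treatment, with medians of -0.18 with regorafenib, -0.16 for anti-PD1, -0.32 for combination and -0.38 for anti-CD40. None was called by edgeR, and in anti-CD40 5 of the 6 had an unadjusted p under 0.05 by edgeR, against 6.2% of all genes. Anti-CD40 2 was the lowest of all 19 libraries for 4 of the 6. These genes share exon sequence, up to 49.3% in Lce3d, so they are not independent results. Since Sprr2 and Lce1 went apart in single libraries, the ratio of their summed CPM ran from 0.0381 in vehicle 4 to 4.06 in combination 2.

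**Figure D5:**
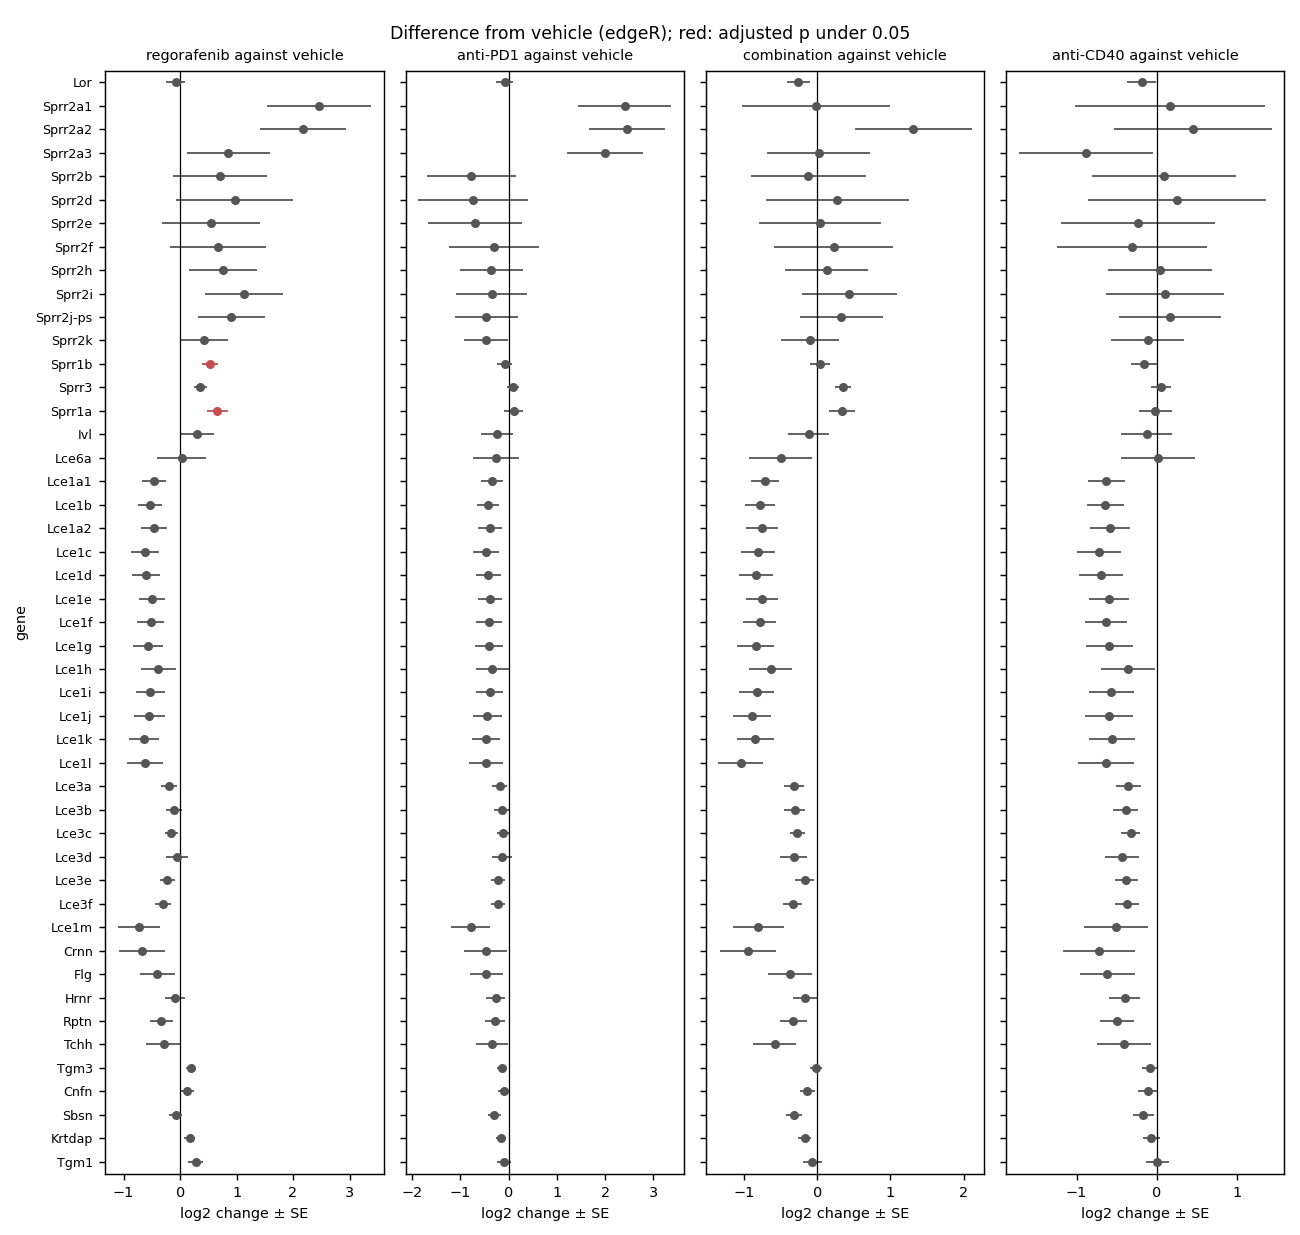
Log2 change against vehicle with its SE (edgeR) for each of the 47 tested genes, in 4 panels, 1 per treatment; genes run down the y axis as in the heat map, red marks an adjusted p under 0.05, and the 4 panels share the vehicle libraries. Red points occur for Sprr1a and Sprr1b with regorafenib, and the Lce1 rows lie left of 0 in all 4 panels.

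The scaffold genes and the S100-fused genes gave no call in any test. Loricrin measured 3392, 3491, 3731 and 4004 CPM in vehicle and 2903 to 3878 CPM with regorafenib or anti-PD1, and the combination held both the lowest library, combination 2 at 2038 CPM, and the highest, combination 4 at 4099.5 CPM. Involucrin, at 3.19 to 13.9 CPM, was highest in regorafenib 1, and its log2 change with regorafenib was 0.30 ± 0.30. Cornulin (Crnn), a marker of differentiated oral and oesophageal epithelium, measured 198, 114, 255 and 229 CPM in vehicle, 138, 109, 155 and 95.3 CPM with regorafenib and 128, 45.2, 90.5, 189.7 and 60.3 CPM in the combination. The groups overlapped through vehicle 2, and the log2 change was -0.68 ± 0.41 with regorafenib and -0.95 ± 0.39 with the combination (edgeR, adjusted p = 0.32 and 0.379).

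Repetin measured 5482, 6097, 6902 and 7352 CPM in vehicle and 3752, 4586 and 5394 CPM with anti-CD40, which did not overlap. The log2 change was -0.50 ± 0.21, at an unadjusted p of 0.0329 and an adjusted p of 0.781 by edgeR. Trichohyalin (Tchh), the protein that hardens hair sheath and filiform papillae, ran from 740.0 CPM in combination 2 to 2510.5 CPM in combination 4, so the combination group covered the whole range of the series. Filaggrin was at 62.9 to 228 CPM, again with both ends in the combination, and hornerin (Hrnr) at 184 to 359.8 CPM.

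Krtdap and Tgm3 were among the least variable members, with a within-group SD of 0.13 and 0.11 on the log2 scale, against 0.20 for Tgm1. Krtdap (chromosome 7, 30787896 to 30791097) measured 1580.2, 1526, 1542 and 1408 CPM in vehicle, 1693, 1746, 1622 and 1756 CPM with regorafenib and 1299, 1519, 1276, 1374 and 1250.3 CPM in the combination. Every combination library lay below every regorafenib library, and the log2 difference was -0.34 ± 0.09 (edgeR, adjusted p = 0.0255). Sprr1b and Krtdap were the 2 of 47 members called in that comparison, both lower, where 10.1% of all genes were called, 4.68% lower and 5.45% higher. An unadjusted p under 0.05 was found for 7 members there, against 28.5% of all genes. The Krtdap call was kept in 5 of the 9 fits that left out 1 library. Neither regorafenib (0.17 ± 0.10) nor the combination (-0.17 ± 0.09) differed from vehicle for Krtdap past the threshold (edgeR, adjusted p = 0.277 and 0.511).

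Tgm1, the membrane-anchored transglutaminase that builds the envelope, measured 577, 528, 619 and 525 CPM with regorafenib and 386, 501, 459, 427 and 436 CPM in the combination. These did not overlap, and the log2 difference was -0.35 ± 0.13 (edgeR, adjusted p = 0.0837). Lce3b, Sprr1b, Krtdap and Tgm1 were the 4 members with every combination library below every regorafenib library, against 6.74% of all genes, and 0 members were wholly above (7.24%). Tgm3, which cross-links papilla and hair proteins, differed by -0.22 ± 0.08 (edgeR, adjusted p = 0.0936) in the same comparison, and Cnfn by -0.27 ± 0.10 (adjusted p = 0.103). With the muscle score or the basal keratinocyte score as a covariate neither Krtdap nor Sprr1b was called, with log2 differences of -0.24 and -0.30 for muscle (adjusted p = 0.251 and 0.345) and -0.27 and -0.37 for basal keratinocytes (adjusted p = 0.153 and 0.203), all by edgeR. Their basal keratinocyte and muscle sums were 6181 to 8594 CPM and 42000 to 56780 CPM in the combination, and those of regorafenib are given above.

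Counts of 0 called stand beside the following values. With anti-PD1 edgeR called 0 of 47 members, where 0.00591% of all genes were called, and 4 members had an unadjusted p under 0.05 against 9.49% of all genes. In the combination against vehicle it called 0 (background 0.0237%), with 21 members at an unadjusted p under 0.05 against 11% of all genes. With anti-CD40 it called 0 (background 0.0%), with 13 at an unadjusted p under 0.05 against 6.2% of all genes. In the combination against anti-PD1 it called 0 (background 0.00591%) with 3 at an unadjusted p under 0.05 against 10.3%, and in no member did these groups stand wholly apart (4.52% of all genes wholly higher, 2.84% wholly lower). In the interaction it called 0 (background 0.461%), with 3 at an unadjusted p under 0.05 against 15.9% of all genes. DESeq2 and limma called 0 in these tests too, apart from the 7 Lce1 genes named above. Over the 47 members the median log2 change was -0.09 with regorafenib, -0.34 with anti-PD1, -0.31 for combination libraries, -0.36 for anti-CD40 and -0.27 for the combination against regorafenib.

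Other genes of the cornification pathway were followed in 5 lists, tested with edgeR. Against vehicle 2.84% of all genes were called lower with regorafenib, beside the 3.29% called higher given above, and 4.68% were called lower in the combination against regorafenib. How far the list calls hold under other settings was not tabulated: over all genes the regorafenib calls fell from 1037 to 8 with the basal keratinocyte covariate, and those of the combination against regorafenib from 1714 to 439 without regorafenib 4 and to 13 with the muscle covariate. Among 38 tested regulators of keratinocyte differentiation, 5 rose with regorafenib and none fell, including Klf5, a Krüppel-like factor of proliferating epithelium (edgeR, log2 change 0.34 ± 0.08, adjusted p = 0.019). In the combination against regorafenib 10 of the 38 fell, including Jund, an AP-1 subunit (edgeR, -0.39 ± 0.08, adjusted p = 0.00988), Pitx1 (-0.31 ± 0.07, adjusted p = 0.0111) and Klf5 (-0.24 ± 0.07, adjusted p = 0.0436). Of 30 other envelope proteins and crosslinkers, 4 rose with regorafenib, among them Anxa1 (0.97 ± 0.21, adjusted p = 0.0178), Dsc2 (0.49 ± 0.08, adjusted p = 0.00657) and Cstb (0.42 ± 0.09, adjusted p = 0.0163), all by edgeR. In the combination against regorafenib 3 of the 30 fell, including the cysteine protease inhibitors Cstb (-0.34 ± 0.09) and Cst6 (-0.33 ± 0.07).

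Of 24 skin lipid barrier enzymes, the cholesterol sulfotransferase Sult2b1 (edgeR, 0.37 ± 0.10, adjusted p = 0.0345) and the ceramide enzyme Degs2 (1.00 ± 0.28, adjusted p = 0.0438) rose with regorafenib, and Sult2b1 and Elovl1 fell by 0.38 and 0.29 on the log2 scale in the combination against regorafenib. Of 21 epidermal proteases and their inhibitors, 0 were called with regorafenib, and Spint1, Spink12 and Klk11 fell by 0.34, 1.56 and 0.33 on the log2 scale in the combination against it. Of 12 S100 genes from the same chromosome 3 region, S100a11, an envelope substrate, rose with regorafenib (edgeR, 0.41 ± 0.11, adjusted p = 0.0348), and S100a11, S100a14, S100a16 and S100a6 fell in the combination against it, by 0.40, 0.30, 0.25 and 0.45 on the log2 scale. None of these 5 lists held a gene called by edgeR against vehicle in anti-PD1, combination or anti-CD40 libraries. The increases with regorafenib and the decreases in the combination share the same 4 regorafenib libraries, whose basal keratinocyte and muscle sums are given above.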

How the data were processed

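RNA was measured in 19 libraries made with a stranded polyA kit, per the labels' protocols. The deposited values are raw counts per gene. Reads were handled with cutadapt 2.4 and STAR 2.7.2a on GRCm38, per the submitters' processing notes, and the program that counted reads, whether it used strand, and its annotation release were not given in the sources used here. Totals ran from 16776177 to 24969492 counts. Every pair of libraries differed beyond sampling noise (smallest chi-square per degree of freedom 12.85).

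Gene IDs were matched without version to GENCODE M21 (55227 matched, 260 not). Counts were fitted with edgeR 4.0.16 in R 4.3.3: filterByExpr kept 16909 genes holding 99.916% of counts, scaling was TMM, and glmQLFit used 1 mean per group (14 residual degrees of freedom, common dispersion 0.0345). The 8 tests were 6 pairwise comparisons, the interaction and any difference among groups. Benjamini-Hochberg adjustment covered every gene in the fit, a call needed an adjusted p under 0.05, and no count was adjusted over the members alone. The SE is the log2 change divided by the root of its F statistic. CPM are TMM scaled, log2 CPM use a prior count of 2, and a marker score is the mean log2 CPM of a list. The fit was tested on simulated data.

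Alternatives were RLE scaling, other filters, DESeq2 1.42.0, limma 3.58.1 (voom with sample weights), the replicate number as a block, tissue scores as covariates, only the groups compared, and leaving out each library. Members named were those with a mean of at least 50 CPM, past the threshold in a test, or with the smallest p in one; pathway genes named were the 2 with the smallest p against vehicle for regorafenib and for the combination, or up to 4 past the threshold, and not all are printed. Other names were chosen after values were seen. Members and lists were chosen with earlier results of these data known. Promoters came from RefSeq (GRCm38.p6). Values were computed with Python 3.11.15. A pathway gene is not reported here.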

Additional observations from a re-analysis of the deposited data

Results flagged for a closer look

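In groups of 4 or 5 libraries, 120 sets of values were examined for a library far from the rest, and 3 were found. Chance gives about 1 in 20 such sets. Lce1e in regorafenib 4 was the lowest of its group at 55.1 CPM, with a gap to the next library of 0.856 of the group's log2 range, against a critical value of 0.829 for 4 samples. Lce1j in the same library was the lowest at 49.7 CPM, with a gap of 0.932. Both are Lce1 genes that share exon sequence with other Lce1 genes. Sbsn in regorafenib 3 was the highest of its group at 593 CPM, with a gap of 0.851. Of the 11 Sprr2 genes, 7 were among those examined, and vehicle 4 was not singled out by this measure in them. For Sprr2d, vehicle 3 (124 CPM) lay between it (2.8 CPM) and the other 2 vehicle libraries.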

How the results depend on the processing

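With regorafenib against vehicle, where edgeR called 2 members, RLE scaling and no filter on low counts each called 1 (Sprr1b), limma 4 (with Sprr3 and Sprr2a2) and a fit of only the groups compared 10 (Sprr1a, Sprr1b and 8 Lce1 genes). Over all genes these settings called 1056, 653, 1673 and 991, where edgeR fitted to all libraries called 1037. The skeletal muscle score and the basal keratinocyte score as covariates each left 0 members with regorafenib, in the combination against regorafenib and in the test for any difference. Over all genes the muscle score left 152, 13 and 34 calls in these tests, and the basal keratinocyte score 8, 133 and 23. For the combination against regorafenib, where 2 were called, no filter called 1, limma and DESeq2 4 each (with Tgm1 and Tgm3) and only the groups compared 5. Over all genes no filter called 1022 there, limma 3052, DESeq2 2496 and only the groups compared 2014, where edgeR fitted to all libraries called 1714. For any difference, where 1 was called, RLE scaling called 0, limma 13 and DESeq2 12. Of all 16909 genes, RLE scaling called 646 there, limma 2889 and DESeq2 2519, where edgeR with TMM called 666. For the combination against vehicle DESeq2 called 7 where edgeR called 0, and over all genes 122 where edgeR called 4. Leaving out 1 library gave 0 to 3 members called with regorafenib, 0 to 2 in the combination against regorafenib and 0 to 2 for any difference. Over all genes those fits called 235 to 1113, 439 to 1717 and 34 to 1813. In the other 5 tests these fits called 0 members.

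Groups share replicate numbers, but 16 of 33 same-numbered pairs had deviations correlated above 0.1 and 5 of 19 libraries correlated best with their own number, so the numbers were not taken to pair samples. With the replicate block 0 members were called with regorafenib, 0 in the combination against regorafenib and 0 for any difference. Over all genes that fit called 654, 1096 and 133.

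After seeing the data, a fit without vehicle 4 and anti-CD40 2 was added: it called 0 members with regorafenib, and 393 of all genes. Of 198 log2 changes of at least 0.25, all kept direction under RLE scaling, DESeq2 and the block, 191 under limma, 190 under each of the muscle and basal keratinocyte covariates and 194 without those 2 libraries. Sprr2a1, Sprr2a2, Flg2, Sprr4 and Lce6a are limited by low counts, and Sprr2a3 by shared sequence. Why calls changed was not tested.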
